A study of Mus musculus with 29 samples.

Results

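Pressure overload was examined in wild-type mouse hearts, by setting the 4 libraries made 4 weeks after transverse aortic constriction (TAC) against the 4 libraries of unstressed hearts, over all genes counted. TAC is an operation that narrows the aorta and so raises the pressure against which the left ventricle ejects. The 8 libraries were chosen by their titles from the 29 of the series, which also holds hearts of mice with a cardiac ablation of protein kinase C δ (PKCδ), a germline knockout of protein kinase C ε (PKCε) or both. The TAC group held wild-type C57BL/6J mice labelled 12 weeks old, 3 labelled male and 1 labelled female. The unstressed group held wild-type C57BL/6J mice labelled 12 weeks old and male. Neither group carries a transgene, a deletion or a drug by its labels, and the unstressed hearts are not labelled as sham-operated, so the narrowing and the operation cannot be told apart. RNA came from the frozen apex of the ventricles, although the tissue label names the whole heart. Polyadenylated RNA was sequenced as single reads without strand, and the deposited values are read counts per gene symbol. The labels do not say whether hearts were pooled, so p-values speak only of how far these libraries differ among themselves.

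A ventricle that ejects against a raised pressure thickens as its muscle cells enlarge. Those cells switch on genes of the fetal heart, such as the natriuretic peptides, β-myosin heavy chain and skeletal α-actin, while fibroblasts between them lay down collagen and other matrix. Adult heart muscle draws most of its energy from fatty acids burnt in mitochondria, and its beat rests on potassium channels and on calcium stored in the sarcoplasmic reticulum.

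Counts assigned to genes numbered 13721528 to 15452223 per TAC library and 10523709 to 15359296 per unstressed library. Of 23420 genes listed, 13765 passed the filter on low counts and were tested. TAC libraries lay at 22.8 to 33.0 on the first principal component of the 8 libraries, against -35.1 to -22.4 for unstressed libraries, and this component held 50.3% of the variance. On the second, with 12.8%, unstressed replicates 1 and 4 (19.6 and 19.4) lay apart from unstressed replicates 2 and 3 (-25.8 and -15.8). Sex-linked transcripts split the unstressed libraries in the same way, against labels that are all male. Xist, the RNA of the inactive X chromosome of female cells, stood at 76.7, 62.4, 119 and 42.4 CPM (the count relative to the library size, scaled by TMM factors) in TAC replicates 1 to 4 and at 0.360, 142, 181 and 1.27 CPM in unstressed replicates 1 to 4. The Y-linked gene Ddx3y stood at 4.16, 5.93, 0 and 15.7 CPM in TAC and at 24.6, 0, 0.101 and 29.2 CPM in unstressed replicates, so TAC replicates 1, 2 and 4 held transcripts of both kinds. The sex labels of TAC libraries are uncertain too, as replicate 3, labelled male, held no Ddx3y and replicate 4, labelled female, the most of its group. TAC replicate 2 also held 10.2 CPM of Myh2, a skeletal muscle myosin, against at most 0.279 CPM in the other TAC libraries. Unstressed replicates 1 and 4 differed less than any other pair of their group, by a chi-square per degree of freedom of 2.22 against 6.81 to 12.6, which is still above sampling noise, and each was counted.

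Several measures of the libraries moved with TAC. Rn45s, the precursor of ribosomal RNA, took 4.51% to 6.17% of counts in TAC libraries and 11.9% to 14.1% in unstressed libraries. Reads aligned to more than 1 place made up 10.97% to 13.5% in TAC libraries and 8.13% to 8.48% in unstressed libraries. Of genes in the highest eighth by GC content of the transcript, 36.3% were called higher after TAC and 3.75% lower, against 6.53% higher and 27.1% lower in the lowest eighth. Of the longest eighth of transcripts 11.3% were called higher and 35.1% lower, against 28.6% and 9.12% of the shortest eighth. The difference in log2 CPM between the highest and lowest eighth by GC content, relative to the mean of unstressed wild-type libraries, was 0.27 to 0.39 in the 4 TAC libraries and -0.08 to 0.12 in the 4 unstressed libraries. In hearts of the other genotypes it ranged from -0.20 to 0.28 after TAC and from -0.32 to 0.37 without. The part of these measures in the changes was not tested beyond a fit with an offset for GC content and length. The value of that fit is given where it ends the call of a named gene or moves the larger counts of a list by over 1.5 times. Moves of small counts are not all given below. Among them, interferon-responsive genes and cardiomyocyte markers called higher were 5 each without the offset and 3 each with it.

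After TAC 4916 of the 13765 genes (35.7%) were called at an adjusted p below 0.05 by edgeR's quasi-likelihood test with Benjamini-Hochberg adjustment. Of all genes tested 17.8% were higher (2446 genes) and 17.9% lower (2470), and the median log2 fold change was -0.003. Large changes were mostly upward. At least 2-fold changes numbered 426 higher and 219 lower, at least 4-fold 108 and 20, and at least 8-fold 37 and 3. In 17.6% of genes all 4 TAC libraries lay above all 4 unstressed ones, and in 17.6% all lay below. When libraries were scaled by their totals alone, 3842 genes were higher and 1346 lower and the median of all genes moved to 0.12, and with Rn45s also left out the numbers were 2467 and 2317. Scaling by totals alone turned the balance of the respiratory chain (20 higher and 9 lower of its list), of calcium, sodium and chloride channels (8 and 3), of creatine and nucleotide genes (8 and 3), of endoplasmic reticulum stress genes (6 and 4), of endothelial markers (5 and 1), of cell contacts (7 and 6), of adrenergic and related receptors (8 and 7), of EGF and gp130 genes (6 and 4) and of angiogenesis genes (6 and 3), and left hypertrophic signalling even (11 and 11). It moved glycolysis to 14 higher and 3 lower, protein breakdown to 11 and 2, the sarcomere to 15 and 4, sarcoplasmic reticulum calcium to 5 and 6, metabolic regulators to 3 and 8, the citric acid cycle to 4 and 12, basement membrane to 9 and 0, the cell cycle to 6 and 2, pericyte markers to 6 and 2 and skeletal muscle markers to 8 and 0. With Rn45s also left out the balance of these lists was as in the fit reported below. Counts of 6 or fewer members of a list often moved by over 1.5 times when 1 library was left out. Of the 4889 called genes with a GC and length value, 3408 were called in the same direction with the offset and 1 in the opposite one, and of the 636 that changed at least 2-fold, 599 were called again.

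**Figure D1:**
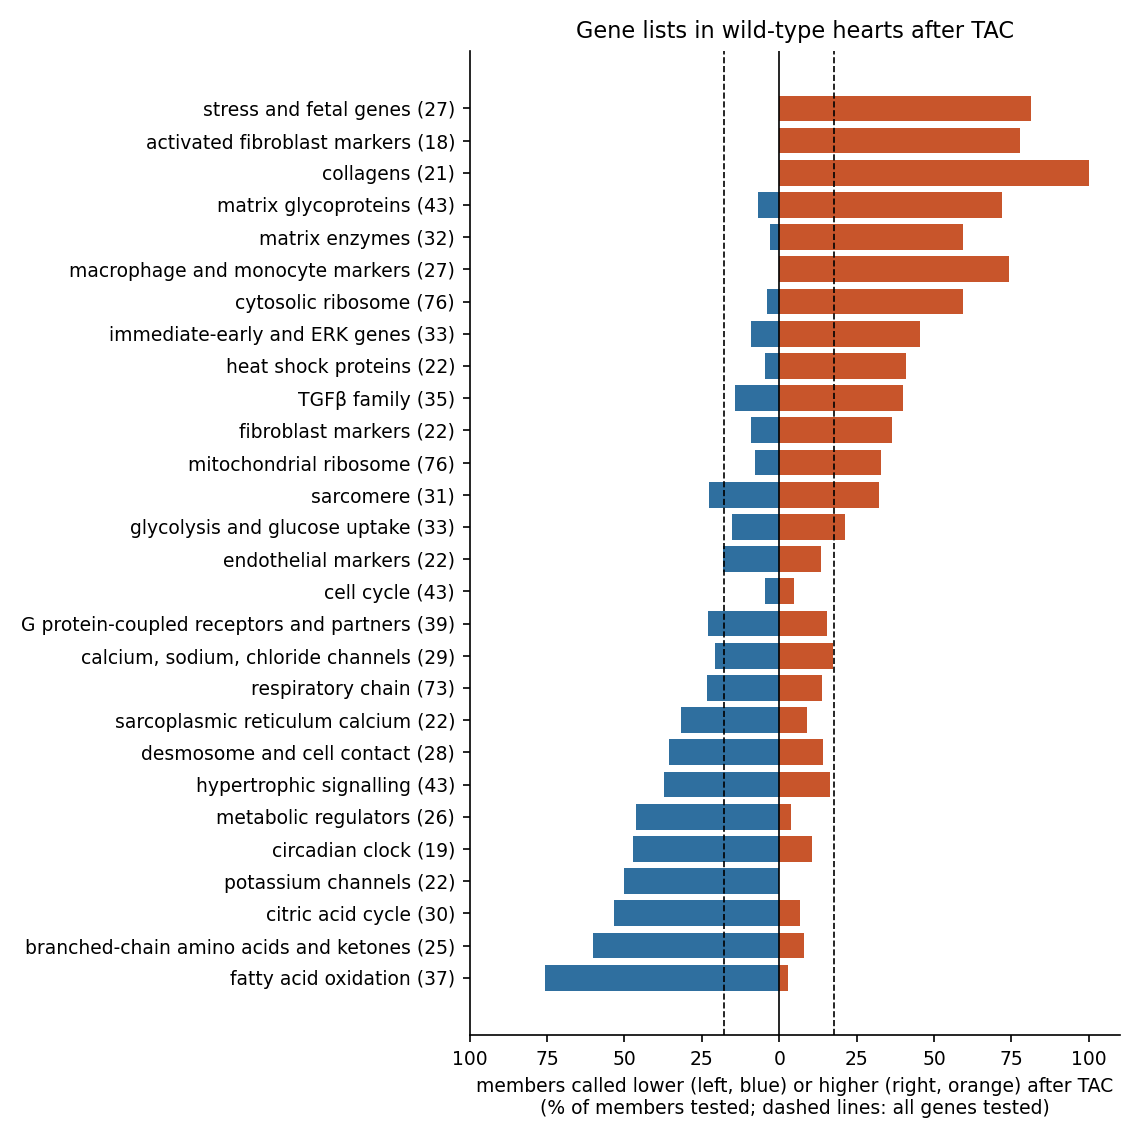
Share of the tested members of 28 gene lists that were called higher (bars to the right, %) or lower (bars to the left, %) in wild-type TAC hearts relative to unstressed hearts, with the number tested in parentheses. Dashed lines mark the share of all genes tested, 17.8% higher and 17.9% lower. Collagens (21 of 21 higher) and stress and fetal genes (22 of 27) stand at the upper end and fatty acid oxidation (28 of 37 lower) at the lower end.

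Genes of cardiac stress and the fetal heart were high in TAC libraries. Of 27 listed members tested, 22 rose and none fell, against 17.8% and 17.9% of all genes, and their median log2 fold change was 1.71. Bulk RNA cannot tell a change in the number of cells of a type from a change in the RNA of each cell, and this holds for every group described here. Nppa encodes atrial natriuretic peptide, a hormone that lowers blood volume, and Nppb its relative brain natriuretic peptide. Nppa (chromosome 4, 148000722 to 148002074; positions here are those of RefSeq for GRCm38.p6) stood at 1976, 1513, 2425 and 1714 CPM in TAC libraries, against 144, 137, 159.5 and 142 CPM in unstressed libraries. All TAC values lay far above all unstressed ones, and the log2 fold change was 3.71 ± 0.46 (SE, edgeR adjusted p = 3.7e-06). Nppb (chromosome 4, 147985786 to 147987205) stood at 366, 543, 347 and 351 CPM in TAC libraries, against 164, 79.2, 80.6 and 160.0 CPM in unstressed libraries. The groups did not overlap, TAC replicate 2 was the highest, and unstressed replicates 1 and 4 lay at about double the level of the other two. The log2 fold change of Nppb was 1.73 ± 0.31 (edgeR adjusted p = 0.0002). Reads of Nppa are uncertain, since 61.5% of its exon length overlaps a gene on the opposite strand. Nppa is also made by the atria, and of 11 atrial markers tested 4 were higher and 2 lower. Myl4, the atrial light chain of myosin, stood at 11.5, 12.9, 4.14 and 8.36 CPM after TAC, against 3.39, 3.46, 2.91 and 2.47 CPM, and Sln, the atrial calcium pump regulator sarcolipin, at most at 1.66 CPM in any library. The part of atrial tissue in these values was not tested.

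Ankrd1, a nuclear and sarcomeric protein that responds to stretch, stood at 4994, 5491, 4329 and 3155 CPM after TAC, against 1427, 565, 1221 and 1487 CPM in unstressed hearts (1.93 ± 0.32, log2 fold change and SE, edgeR adjusted p = 8.6e-05). Unstressed replicate 2 was the lowest of its group, and the groups did not overlap. Rcan1, a feedback inhibitor of the phosphatase calcineurin and one of its target genes, stood at 189, 214, 146 and 212 CPM after TAC, against 55.7, 63.3, 49.0 and 55.0 CPM (1.77 ± 0.15, edgeR adjusted p = 1.9e-08). Every TAC library held more than 2 times the highest unstressed level of Rcan1. Gdf15, a secreted stress hormone, had a log2 fold change of 3.19 ± 0.64, Tnfrsf12a, the receptor of the cytokine TWEAK, of 1.19 ± 0.17, and Xirp2, a protein of the intercalated disc, of 0.86 ± 0.14, each called.

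Promoter sequences of 4 of these genes are shown because the genes moved together and because motifs bound by factors of heart muscle are known in promoters of this kind. The sequences are those of RefSeq on GRCm38.p6, from 250 bases before to 50 after the annotated start, written 5′ to 3′ on the gene's own strand. For Nppb the start used in RefSeq's promoter window lies inside the span given above, downstream of its first base. Capitals mark 4 motifs, searched on both strands: the M-CAT core CATTCC, the GATA motif AGATAA, the TATA motif TATAAA and the CArG box, which serum response factor binds.
Nppa, chr4:148000472-148000771, plus strand: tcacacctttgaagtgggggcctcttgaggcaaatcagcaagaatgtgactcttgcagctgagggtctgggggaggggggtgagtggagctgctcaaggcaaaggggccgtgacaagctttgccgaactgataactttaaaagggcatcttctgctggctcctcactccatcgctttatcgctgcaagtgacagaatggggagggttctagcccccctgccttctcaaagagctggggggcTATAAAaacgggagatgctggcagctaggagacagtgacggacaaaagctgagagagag
Nppb, chr4:147985650-147985949, plus strand: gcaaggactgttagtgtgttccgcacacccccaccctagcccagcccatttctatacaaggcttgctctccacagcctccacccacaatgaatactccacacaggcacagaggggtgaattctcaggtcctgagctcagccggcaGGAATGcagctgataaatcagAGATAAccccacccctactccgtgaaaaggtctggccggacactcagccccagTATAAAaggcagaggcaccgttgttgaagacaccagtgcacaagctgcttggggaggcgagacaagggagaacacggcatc
Acta1, chr8:123894726-123895025, minus strand: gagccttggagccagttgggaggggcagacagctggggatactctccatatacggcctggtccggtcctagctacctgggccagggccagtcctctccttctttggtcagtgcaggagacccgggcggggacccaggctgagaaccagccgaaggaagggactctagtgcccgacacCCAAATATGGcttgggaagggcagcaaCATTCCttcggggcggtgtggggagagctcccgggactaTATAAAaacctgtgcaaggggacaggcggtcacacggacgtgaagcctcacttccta
Ankrd1, chr19:36119795-36120094, minus strand: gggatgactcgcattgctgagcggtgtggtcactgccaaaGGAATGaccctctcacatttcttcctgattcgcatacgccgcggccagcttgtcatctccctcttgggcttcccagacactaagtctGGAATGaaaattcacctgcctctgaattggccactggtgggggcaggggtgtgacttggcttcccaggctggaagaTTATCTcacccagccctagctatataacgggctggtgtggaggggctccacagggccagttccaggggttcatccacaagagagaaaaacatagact
The Acta1 window held 1 CArG box and 1 M-CAT core, the Nppb window 1 M-CAT core and 1 GATA motif, and the Ankrd1 window 2 M-CAT cores and 1 GATA motif. The Nppa window held the TATA motif alone among the 4. Of 32851 RefSeq promoters of the same length, 14.7% held the M-CAT core, 11.2% the GATA motif, 13.6% the TATA motif and 1.63% the CArG box. None of the 4 motifs was found in the windows of Rcan1, Xirp2 and Csrp3, and 1 M-CAT core was found in that of Myh7. Rcan1, Csrp3 and Myh7 have 2 annotated starts each, and only the window of the most upstream one was searched.

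**Figure D2:**
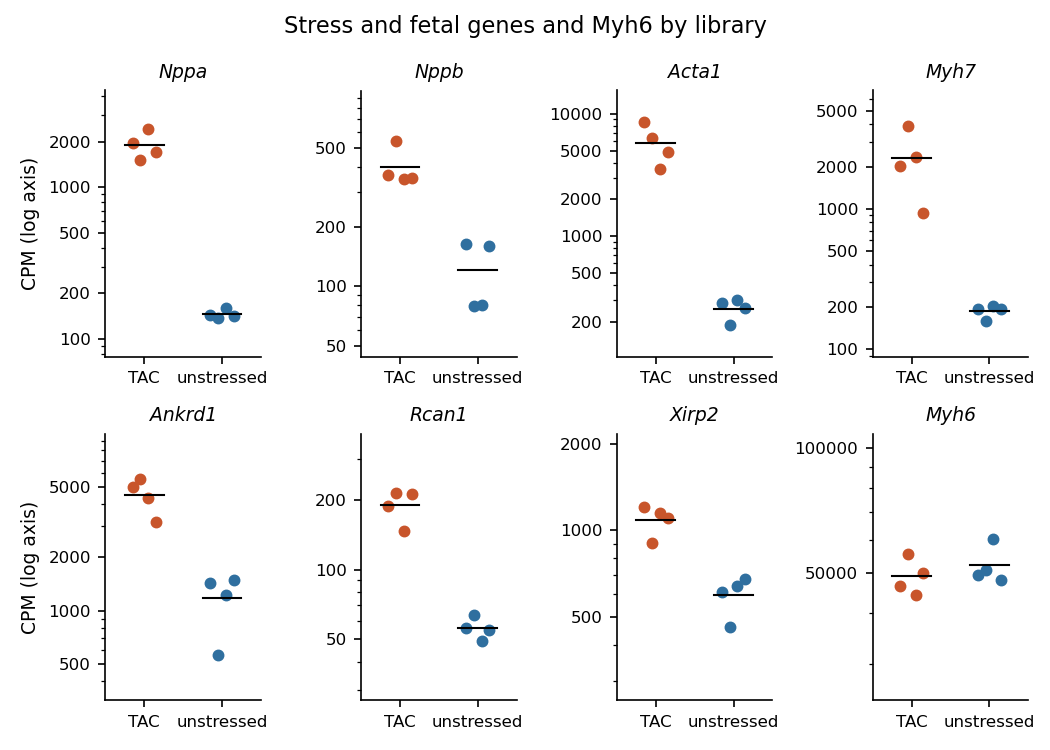
CPM (log axis) of 7 stress and fetal genes and of Myh6 in each wild-type library, TAC (orange) left of unstressed (blue); points are libraries in the order of replicates 1 to 4 and lines are means. TAC libraries lie above all unstressed ones for every gene but Myh6, and unstressed replicates 1 and 4 lie above replicates 2 and 3 for Nppb.

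The make-up of the contractile filaments shifted in its minor isoforms. Myh7, the β-myosin heavy chain of the fetal ventricle (chromosome 14, 54970684 to 54994626), stood at 2029, 3863, 2342 and 938 CPM in TAC libraries, against 193, 159.5, 204 and 194 CPM in unstressed libraries. TAC replicate 4 was the lowest of its group and replicate 2 the highest, and the log2 fold change was 3.61 ± 0.39 (edgeR adjusted p = 5.7e-07). Myh6, the α-myosin heavy chain of the adult mouse ventricle, stood at 46339, 55463, 44174 and 50006 CPM after TAC, against 49399.6, 50672, 60230.2 and 47926 CPM, with overlapping groups (-0.09 ± 0.08, edgeR adjusted p = 0.39). Per transcript length, Myh7 made up 4.12%, 6.40%, 4.95% and 1.81% of both myosins in TAC libraries, against 0.381%, 0.308%, 0.331% and 0.395% in unstressed libraries. The means were 4.32% ± 1.92 and 0.354% ± 0.041 (SD, n = 4 each), and the exact two-sided permutation p was 0.029, the smallest that 70 splits can give. Acta1, skeletal α-actin (chromosome 8, 123891758 to 123894775), stood at 8625, 6335, 3517 and 4836 CPM in TAC libraries, against 282, 186, 299 and 257 CPM in unstressed ones (4.51 ± 0.46, log2, edgeR adjusted p = 3.5e-07). Its share of skeletal and cardiac actin was 44.0%, 33.1%, 23.8% and 29.8% after TAC, against 2.81%, 1.92%, 2.95% and 2.60% in unstressed hearts. The shares averaged 32.7% ± 8.47 and 2.57% ± 0.454, again with an exact permutation p of 0.029. Both pairs are close paralogs between which reads can be split, and 13.3% of the exon length of Myh7 overlaps opposite-strand genes, so the shares are uncertain.

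**Figure D3:**
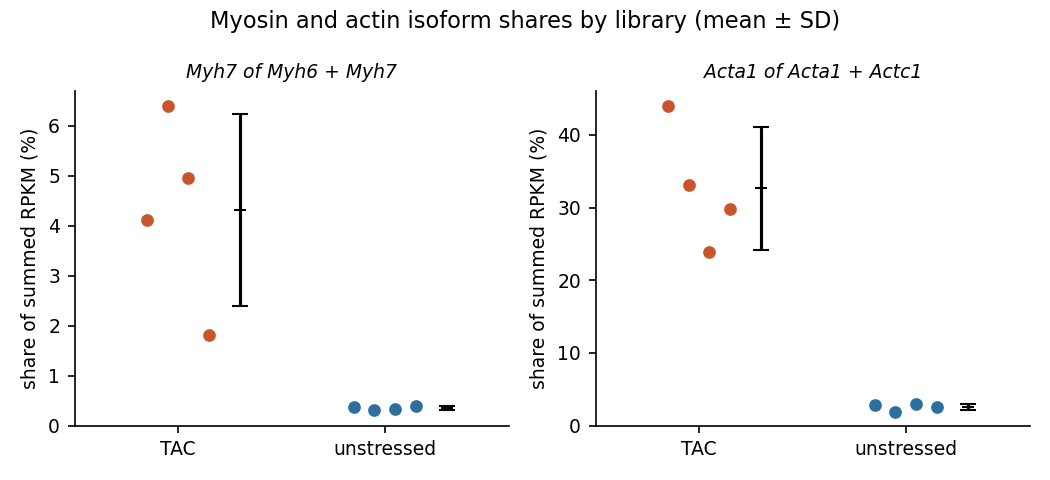
Share of Myh7 in the summed length-scaled counts (RPKM) of Myh6 and Myh7, left, and of Acta1 in those of Acta1 and Actc1, right, in each library (points) with the mean ± SD beside them. All 4 TAC libraries lie above all unstressed libraries in both panels, from 1.81% to 6.40% against 0.308% to 0.395% for Myh7.

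Of 31 genes of the adult sarcomere 10 rose and 7 fell, with a median log2 fold change of 0.05. Without TAC replicate 3 or unstressed replicate 3, 4 fell. Ttn, the giant elastic spring of the sarcomere, stood at 10913, 9473, 10082 and 11488 CPM after TAC, against 19346, 17996, 25256 and 20414 CPM (-0.98 ± 0.10, edgeR adjusted p = 5.6e-08). Its transcript is very long, and with the GC and length offset its log2 fold change was -0.41 ± 0.08 (adjusted p = 0.00015). Tnni3, the inhibitory troponin of adult heart, fell by 0.45, and Mylk3, the kinase of the cardiac myosin light chain, by 0.49. Des, the intermediate filament protein of muscle, stood at 4712 ± 350.2 CPM in TAC hearts, against 2689 ± 91.4 CPM in unstressed hearts (0.81 ± 0.10, log2). Mybpc3, cardiac myosin-binding protein C, and Csrp3, a Z-disc protein, rose by 0.48 ± 0.08 and 0.63 ± 0.11.

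Collagen genes rose without exception among those tested. All 21 collagen chains that passed the filter were called higher (1 of the 22 listed did not pass), with a median log2 fold change of 1.06, and their summed level was 5646 to 8854 CPM in TAC libraries, against 2904 to 3266 CPM in unstressed libraries. Col1a1 and Col1a2, the chains of the main fibrillar collagen, had log2 fold changes of 1.84 ± 0.24 and 1.49 ± 0.19. Col1a1 stood at 674, 432, 874 and 515 CPM after TAC, against 182, 198, 158 and 160.4 CPM in unstressed hearts (edgeR adjusted p = 6.0e-06). Col3a1, the fibrillar collagen of distensible tissue, stood at 808, 655, 1695 and 805 CPM, against 274, 340.2, 225 and 267 CPM (1.84 ± 0.28, adjusted p = 3.7e-05). TAC replicate 3 was the highest of its group for both, and replicate 2 the lowest. The basement membrane chains Col4a1 and Col4a2 were more even, with Col4a1 at 1809.9, 1447, 1793 and 1882 CPM after TAC, against 886, 888, 804 and 878 CPM (1.004 ± 0.09, adjusted p = 3.3e-09). Col8a1, a short-chain collagen of vessel walls, had the log2 fold change 2.21 ± 0.22, Col5a2, which sets fibril diameter, 1.67 ± 0.20, and Col16a1, a fibril-associated chain, 1.62 ± 0.20.

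Of 43 matrix glycoproteins and proteoglycans 31 rose and 3 fell (median 1.05), and 5 of the 10 genes with the largest rise without overlap between groups, Fmod, Ltbp2, Thbs4, Cilp and Comp, are of this kind. Cilp, a cartilage matrix protein that binds TGFβ, stood at 221, 95.7, 175 and 115 CPM after TAC, against 9.73, 12.9, 7.13 and 10.6 CPM (3.89 ± 0.34, edgeR adjusted p = 5.6e-08). Ltbp2, an elastic-fibre protein of the latent TGFβ binding family, stood at 106, 48.1, 81.5 and 68.4 CPM, against 4.04, 4.66, 3.01 and 3.94 CPM (4.26 ± 0.44, adjusted p = 4.2e-07). Thbs4, a matricellular thrombospondin, stood at 108, 41.8, 71.9 and 55.2 CPM, against 4.11, 4.06, 5.53 and 4.95 CPM (3.90 ± 0.46, adjusted p = 1.8e-06). In these 3 genes TAC replicate 1 was the highest and replicate 2 the lowest, and the lowest TAC library lay several-fold above the highest unstressed one. Fmod, a proteoglycan that binds fibrillar collagen, and Comp, a pentameric thrombospondin of cartilage, had log2 fold changes of 4.35 ± 0.69 and 3.75 ± 0.60. Fbn1 and Mfap5, parts of the elastic microfibril, had 1.34 ± 0.17 and 1.68 ± 0.22, and Postn, a matricellular protein of activated fibroblasts, stood at 99.7, 53.4, 149 and 98.9 CPM after TAC, against 18.5, 18.8, 21.1 and 18.4 CPM (2.39 ± 0.40, adjusted p = 9.9e-05).

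Enzymes that process and cross-link matrix moved with it. Of 32 members 19 rose and 1 fell (median 0.65). Loxl1, a lysyl oxidase that cross-links elastin and collagen, stood at 119 ± 16.2 CPM in TAC hearts, against 38.4 ± 5.91 CPM in unstressed hearts (1.63 ± 0.17, log2, edgeR adjusted p = 3.2e-07). Adamts2, which trims procollagen, rose by 1.12 ± 0.16. Timp1, an inhibitor of matrix metalloproteinases, stood at 11.6, 10.5, 33.8 and 11.6 CPM after TAC, with replicate 3 at about 3 times the others, against 1.88, 3.16, 1.51 and 2.01 CPM (2.96 ± 0.42, adjusted p = 1.3e-05). Lox rose by 1.83 ± 0.52 with TAC replicate 3 again the highest, and without that library it was no longer called. Of 14 genes of laminins, nidogens, perlecan and other basement membrane proteins 5 rose and 1 fell (median 0.21), and with the GC and length offset 8 rose. Hspg2, which encodes perlecan, rose by 0.39 ± 0.10 without the offset. Of 35 genes of the TGFβ and BMP families 14 rose and 5 fell. Tgfb3 and Tgfb2, both ligands, rose by 0.81 ± 0.10 and 0.97 ± 0.18, Fstl1, a secreted BMP-binding protein, by 1.30 ± 0.19, and the co-receptor gene Tgfbr3 fell by 0.81. Inhba, whose product forms activin A, rose by 1.39 ± 0.28. Ctgf, a matricellular target of TGFβ, stood at 248, 217, 263 and 171 CPM, against 164, 52.7, 133 and 149 CPM, and was not called (0.85 ± 0.38, adjusted p = 0.088).

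**Figure D4:**
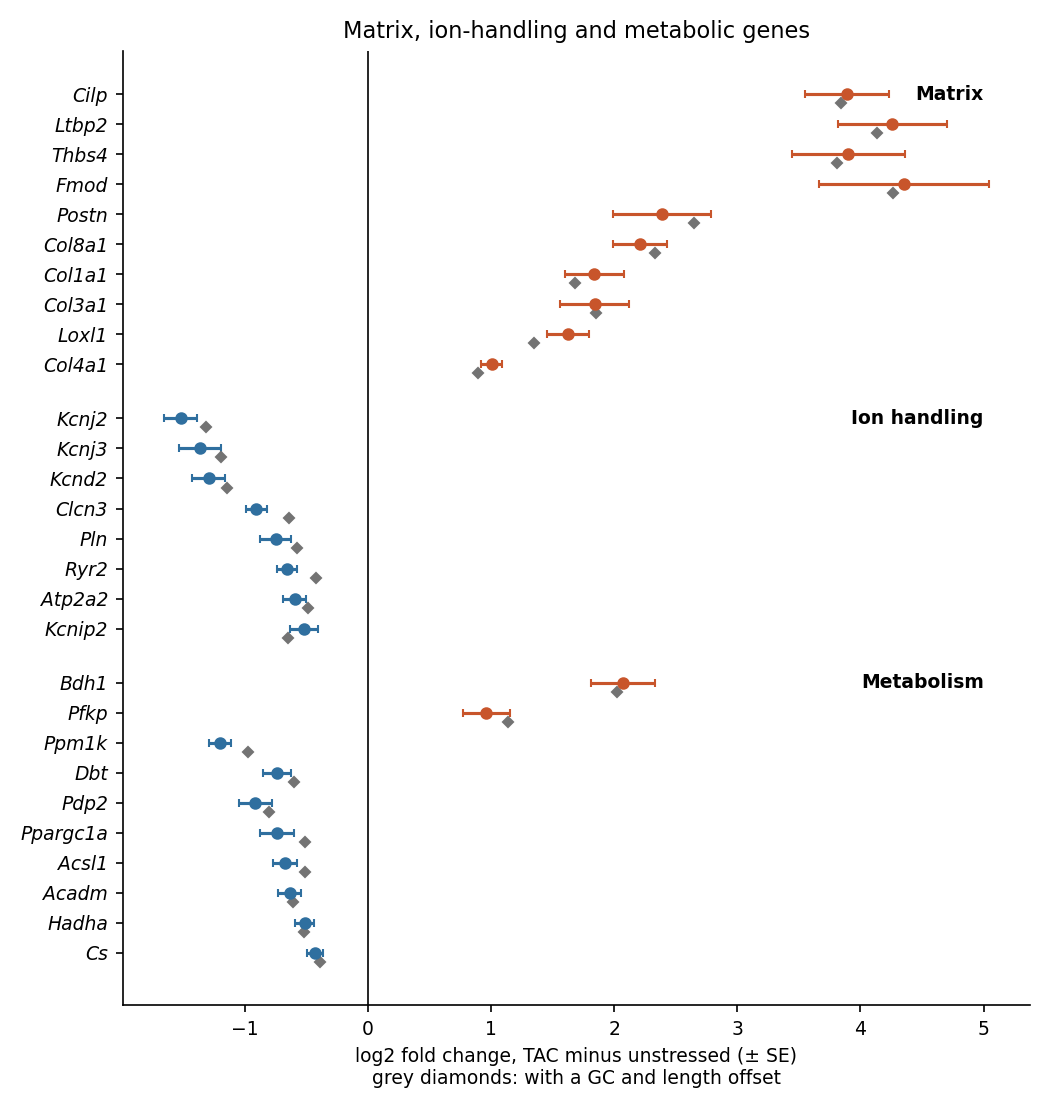
Log2 fold changes (TAC minus unstressed, ± SE) of 28 named genes of the matrix, of ion handling and of metabolism, with orange for higher and blue for lower after TAC; grey diamonds give the same gene with an offset for GC content and length. The matrix genes range from 1.004 (Col4a1) to 4.35 (Fmod), and all ion-handling genes drawn lie below 0.

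Markers of cell types gave a second view of the same tissue. Of 18 markers of activated fibroblasts and myofibroblasts 14 rose and none fell (median 2.09), of which several are matrix genes already given. Their summed level was 943 to 1542 CPM after TAC, against 480.2 to 535 CPM in unstressed hearts. Meox1, a transcription factor of activated fibroblasts, stood at 31.7, 28.4, 19.5 and 32.1 CPM after TAC, against 4.90, 11.04, 6.93 and 5.82 CPM (1.96 ± 0.27, edgeR adjusted p = 7.4e-06), whereas Acta2, smooth muscle α-actin and a marker of myofibroblasts and vessel walls, stood at 166, 167, 296 and 249 CPM, against 226, 234, 262 and 233 CPM, and was not called (-0.12 ± 0.24, adjusted p = 0.74). Of 22 markers of fibroblasts at large 8 rose and 2 fell (median 0.29), and the risen ones include the collagens. Scara5, a ferritin receptor of resting fibroblasts, stood at 19.96 ± 3.82 CPM in TAC hearts, against 38.4 ± 4.73 CPM in unstressed hearts (-0.94 ± 0.12, adjusted p = 6.4e-07).

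Macrophage and monocyte markers rose by smaller amounts, 20 of 27 with none lower and a median of 0.51. Their summed level was 1193 to 1481 CPM after TAC, against 970.2 to 1054 CPM in unstressed hearts, so the groups did not overlap. C1qa, C1qb and C1qc, the chains of the complement protein C1q that resident macrophages make, had log2 fold changes of 0.50 ± 0.08, 0.57 ± 0.08 and 0.49 ± 0.09. C1qb stood at 83.4, 88.2, 114 and 86.3 CPM, against 66.6, 64.1, 55.5 and 63.7 CPM, with TAC replicate 3 the highest. Csf1r, the growth factor receptor of macrophages, rose by 0.41 ± 0.08, Ctss, a lysosomal protease, by 0.71 ± 0.14 and Cx3cr1, the fractalkine receptor, by 1.17 ± 0.20. Its ligand Cx3cl1 rose by 1.06 ± 0.19. Without TAC replicate 3, 11 of the 27 macrophage markers were called higher.

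Lymphocyte markers were near the limit of detection. Of 17 lymphocyte markers listed in the files 8 passed the filter and 11 stayed under 1 CPM in all 8 libraries, and the summed level was 14.9 to 19.1 CPM after TAC, against 10.3 to 14.7 CPM. The 22 endothelial markers gave 3 higher and 4 lower (17.8% and 17.9% of all genes) with a median of 0.003, and the summed level was 2722 to 3138 CPM after TAC, against 2964 to 3344 CPM. Of 16 markers of pericytes and smooth muscle 4 rose and 3 fell (17.8% and 17.9% of all genes), among them Des, which heart muscle makes as well, and with the GC and length offset 2 rose and 4 fell. Markers of Schwann cells and neurons were low but moved one way, with 6 of the 8 tested lower and none higher (median -1.01) and a summed level of 21.5 to 27.0 CPM after TAC, against 35.5 to 36.8 CPM. Without TAC replicate 2, 2 of these markers were called lower. Of 14 skeletal muscle markers tested 6 rose and 1 fell, and without TAC replicate 2 4 rose and none fell, or with the stricter filter on low counts 3 and none. Mybpc2, a myosin-binding protein of fast muscle, stood at 121, 106, 188 and 100.4 CPM after TAC, against 50.3, 43.8, 38.7 and 46.3 CPM (1.52 ± 0.27, adjusted p = 0.00015). Defining genes of fast skeletal muscle, Mylpf and Atp2a1, stayed at or under 1.11 CPM in TAC libraries and 2.11 CPM in unstressed ones. Of 12 cardiomyocyte markers 5 rose and 5 fell, with a summed level of 102989 to 121395 CPM after TAC, against 118180.2 to 137800.2 CPM.

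Of 22 potassium channel genes tested 11 fell and none rose (median -0.35). Kcnj2, which carries the inward rectifier current that sets the resting potential, stood at 12.8, 14.5, 16.3 and 16.4 CPM after TAC, against 35.0, 46.6, 54.0 and 37.0 CPM (-1.52 ± 0.14, edgeR adjusted p = 8.1e-09). Kcnd2, a channel of the transient outward current that shortens the mouse action potential, stood at 10.5, 9.63, 12.7 and 16.9 CPM, against 33.5, 27.4, 28.7 and 31.9 CPM (-1.29 ± 0.13, adjusted p = 3.2e-08). In both, the lowest unstressed library lay well above the highest TAC library. Kcnip2, the accessory subunit of that current, fell by 0.52, and Kcnj3 and Kcnj5, which form the channel opened by acetylcholine, by 1.36 and 0.63. Kcnv2, a modulatory subunit, stood at 4.70, 5.04, 4.86 and 5.22 CPM, against 16.1, 15.6, 13.5 and 15.9 CPM (-1.62 ± 0.33, adjusted p = 0.00058). Abcc9, the sulfonylurea receptor of the ATP-sensitive channel, fell by 0.62. Reads of Kcnj3 are uncertain, as 31.1% of its exon length overlaps an opposite-strand gene.

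Of 22 genes of calcium cycling in the sarcoplasmic reticulum 7 fell and 2 rose, and without TAC replicate 2 none rose. The 3 main ones fell. Atp2a2, the SERCA2 pump that refills the store, stood at 7657, 7527, 7632 and 9114 CPM after TAC, against 11484, 12699, 12433 and 11648 CPM (-0.60 ± 0.09, edgeR adjusted p = 1.4e-05). Pln, phospholamban, which restrains that pump, stood at 1071 ± 100.2 CPM in TAC hearts, against 1800.2 ± 161 CPM in unstressed hearts (-0.75 ± 0.12, adjusted p = 4.1e-05), although 64.7% of its exon length overlaps an opposite-strand gene. Ryr2, the release channel, stood at 3019 ± 273 CPM in TAC hearts, against 4769.9 ± 121 CPM in unstressed hearts (-0.66 ± 0.08, adjusted p = 4.8e-07), and Trdn, which anchors calsequestrin to it, fell by 0.71. Of 29 other calcium, sodium and chloride channels and pumps 5 rose and 6 fell (17.8% and 17.9% of all genes). The chloride transporter gene Clcn3 fell by 0.91, the calcium channel subunits Cacna2d1 and Cacnb2 by 0.58 and 0.48, while Cacnb3 rose by 0.84 ± 0.14.

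Among 39 receptors of the adrenergic, muscarinic and angiotensin families and their partners 6 rose and 9 fell (17.8% and 17.9% of all genes). Adra1a, an α-adrenergic receptor, stood at 21.3, 13.6, 15.9 and 23.1 CPM after TAC, against 45.1, 29.8, 35.8 and 48.5 CPM (-1.11 ± 0.18, edgeR adjusted p = 4.3e-05). Chrm2, the muscarinic receptor of the heart, fell by 0.70, Adcy6, a main adenylyl cyclase of heart muscle, by 0.57, and Pde4d, a phosphodiesterase that degrades cyclic AMP, by 0.75. Grk5, a kinase that desensitises such receptors, stood at 37.2 ± 4.43 CPM in TAC hearts, against 17.0 ± 1.93 CPM in unstressed hearts (1.12 ± 0.15, adjusted p = 4.4e-06). Ace, which makes angiotensin II, rose by 0.75 ± 0.20. At cell contacts, 10 of 28 genes fell and 4 rose. Dsg2 and Dsc2, the desmosomal cadherins, fell by 0.82 and 0.62, Ctnna3, an α-catenin of the intercalated disc, fell by 0.84, and Tln1, talin of the integrin contacts, rose by 0.47 ± 0.07.

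Among signalling genes, changes went in both directions. Of 43 genes of hypertrophic signalling 16 fell and 7 rose (median -0.11), and the transcription factor genes Tbx5, Mef2a and Myocd fell by 0.97, 0.49 and 0.48. Of the 9 isoforms of protein kinase C tested, Prkca and Prkcd rose and none fell (17.8% and 17.9% of all genes). Prkca, the main calcium-dependent isoform of the heart, stood at 29.6, 26.3, 27.1 and 30.6 CPM after TAC, against 20.8, 21.4, 20.7 and 20.7 CPM (0.44 ± 0.08, edgeR adjusted p = 0.00012). Prkcd, which encodes PKCδ, stood at 23.4, 20.5, 28.0 and 20.6 CPM, against 15.5, 15.8, 13.4 and 15.8 CPM (0.61 ± 0.12, adjusted p = 0.00026). Prkce, which encodes PKCε, stood at 40.4, 24.0, 33.3 and 42.9 CPM, against 46.9, 52.9, 49.2 and 49.5 CPM, and was not called (-0.50 ± 0.25, adjusted p = 0.13). TAC replicate 2 was the lowest for Prkce, and the groups did not overlap. In fits to the wild-type groups alone or to libraries labelled male Prkce was called lower.

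Immediate-early genes, which respond to growth signals and calcium within minutes, were high chiefly in TAC replicate 2. Of 33 such genes and feedback genes of the ERK pathway 15 rose and 3 fell, without TAC replicate 2 8 rose, and with the GC and length offset 8 rose. Egr1, a zinc-finger factor of this class, stood at 128, 482, 60.5 and 78.8 CPM after TAC, against 63.2, 35.3, 59.6 and 62.6 CPM (1.76 ± 0.54, edgeR adjusted p = 0.014), and without TAC replicate 2 or in a fit to the wild-type groups alone it was not called. Egr2, its relative, stood at 13.6, 41.2, 5.18 and 5.71 CPM, against 0.433, 0.827, 0.502 and 0.802 CPM (4.64 ± 0.79, adjusted p = 0.00012), and its log2 fold change without TAC replicate 2 was 3.63. Fos stood at 9.93, 51.4, 10.9 and 3.48 CPM, against 18.2, 2.48, 3.31 and 15.2 CPM, with overlapping groups, and was not called (0.92 ± 0.72, adjusted p = 0.34). Nr4a3, an orphan nuclear receptor, was even among TAC libraries, at 7.11, 6.57, 9.39 and 8.08 CPM, against 1.44, 1.35, 2.71 and 1.47 CPM (2.20 ± 0.44, adjusted p = 0.00054). Among EGF-family and gp130 cytokine genes 4 of 25 rose and 5 fell (17.8% and 17.9% of all genes), and with the GC and length offset 6 rose and 4 fell. The leukaemia inhibitory factor receptor gene Lifr stood at 38.9 ± 2.54 CPM in TAC hearts, against 70.8 ± 8.69 CPM in unstressed hearts (-0.86 ± 0.07, adjusted p = 2.1e-09), and the ligand gene Ctf1, cardiotrophin 1, fell by 1.01.

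Most genes of fatty acid use were lower after TAC. Of 37 tested 28 fell and 1 rose, with a median log2 fold change of -0.41, and their summed level was 16148 to 19786 CPM after TAC, against 21729.7 to 23119 CPM in unstressed hearts. Acsl1, which activates fatty acids, stood at 673, 655, 575 and 754 CPM after TAC, against 1014, 1069, 1073 and 1086 CPM (-0.67 ± 0.10, edgeR adjusted p = 4.2e-06). Acadm, the medium-chain acyl-CoA dehydrogenase, stood at 621, 713, 525 and 666 CPM, against 989.9, 954, 926 and 1055 CPM (-0.64 ± 0.10, adjusted p = 8.9e-06). Hadha, the α-subunit of the trifunctional protein, stood at 1221, 1296, 1135 and 1291 CPM, against 1731, 1640.0, 1912 and 1777 CPM (-0.51 ± 0.08, adjusted p = 8.0e-06). TAC replicate 3 was the lowest for all 3, and the groups did not overlap. Lpl, the lipase that frees fatty acids from lipoproteins, fell by 0.59, and Ech1, an isomerase of unsaturated fatty acids, by 0.67. The member that rose was Cpt1b, the muscle carnitine palmitoyltransferase, by 0.34 ± 0.13, a call lost with the GC and length offset (0.24 ± 0.12, adjusted p = 0.13), among libraries labelled male and without any 1 of TAC replicates 1, 2 and 4 or unstressed replicates 1, 2 and 4. Its counts were low beside those of Acadm and Hadha, at 11.3 to 12.8 CPM in unstressed libraries, and the reason was not tested. Pdk4, which blocks pyruvate oxidation when fat is burnt, stood at 404, 240.1, 188 and 269 CPM, against 271, 165, 423 and 301 CPM, and was not called (-0.07 ± 0.57, adjusted p = 0.94).

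Other mitochondrial pathways moved in part. Of 30 genes of the citric acid cycle and of pyruvate dehydrogenase 16 fell and 2 rose (median -0.24), with Cs, citrate synthase, at -0.43 ± 0.06 and the pyruvate dehydrogenase phosphatases Pdp1 and Pdp2 at -0.83 ± 0.12 and -0.92 ± 0.13. Of 73 nuclear genes of the respiratory chain and ATP synthase 17 fell and 10 rose (17.9% and 17.8% of all genes). With the GC and length offset 27 fell and 8 rose, against 16.2% of all genes in either direction. Cox5b and Cox5a, both subunits of cytochrome c oxidase, moved apart, with Cox5b at 548 ± 48.5 CPM in TAC hearts, against 763 ± 64.6 CPM in unstressed hearts (-0.48 ± 0.07, edgeR adjusted p = 1.1e-05) and Cox5a at 204 ± 30.3 CPM in TAC hearts, against 128 ± 13.5 CPM in unstressed hearts (0.67 ± 0.12, adjusted p = 0.00014). Of 26 regulators of metabolism 12 fell and 1 rose. Ppargc1a, the PGC-1α coactivator of mitochondrial genes, stood at 57.9, 58.3, 64.0 and 73.5 CPM after TAC, against 102, 92.1, 123 and 107 CPM (-0.74 ± 0.14, adjusted p = 0.00016). Ppara, the nuclear receptor of fatty acid genes, fell by 0.44, and Mfn1, which fuses mitochondria, by 0.39.

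Genes for the breakdown of branched-chain amino acids and ketone bodies mostly fell. Of 25 genes 15 fell and 2 rose (median -0.25). Ppm1k, the phosphatase that switches on the branched-chain keto acid dehydrogenase, stood at 33.7, 31.6, 36.7 and 32.7 CPM after TAC, against 76.9, 71.8, 77.5 and 83.8 CPM (-1.20 ± 0.09, edgeR adjusted p = 2.1e-10), the smallest adjusted p of the genes named here. Dbt, a subunit of that dehydrogenase, and Ivd, which acts on its leucine product, fell by 0.74 and 0.41. Bdh1, which oxidises the ketone body β-hydroxybutyrate, stood at 264, 268, 196 and 238 CPM, against 69.9, 58.0, 38.0 and 63.1 CPM (2.07 ± 0.26, adjusted p = 3.9e-06), and every TAC library held more than 2 times the highest unstressed level. Oxct1, the next enzyme of ketone use, fell by 0.28. Of 33 genes of glucose uptake and glycolysis 7 rose and 5 fell (17.8% and 17.9% of all genes). The platelet-type phosphofructokinase gene Pfkp rose by 0.96 ± 0.19 and Hk1, a hexokinase, by 0.46 ± 0.11, while the insulin-regulated transporter gene Slc2a4 fell by 0.44. Pfkfb1, which makes the activator of phosphofructokinase, stood at 4.76, 5.23, 4.92 and 5.01 CPM after TAC, against 28.8, 20.6, 22 and 30.2 CPM (-2.35 ± 0.42, adjusted p = 0.00016). Ckb, the brain-type creatine kinase, rose by 1.21 ± 0.19.

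Of 19 clock genes tested 9 fell and 2 rose (median -0.44), and the 2 that rose belong to the activating arm of the clock. Arntl, which encodes BMAL1, stood at 15.6, 14.5, 6.67 and 10.8 CPM after TAC, against 1.15, 1.28, 1.91 and 1.74 CPM (2.98 ± 0.54, edgeR adjusted p = 0.0002). Npas2, a partner of BMAL1, stood at 12.5, 10.1, 5.44 and 7.80 CPM, against 2.31, 2.93, 2.01 and 2.67 CPM (1.83 ± 0.37, adjusted p = 0.00047). TAC replicate 3 was the lowest for both. Nr1d2, the repressor REV-ERBβ, stood at 21.9, 21.3, 31.4 and 31.8 CPM, against 68.7, 61.2, 78.0 and 70.5 CPM (-1.39 ± 0.14, adjusted p = 1.2e-07). The output factors Hlf, Tef and Dbp, which share a target motif, had log2 fold changes of -1.90 ± 0.26, -1.33 ± 0.26 and -1.50 ± 0.43, and the repressor Cry2 of -0.92 ± 0.20. Groups did not overlap for any of these 7 genes. Gm129, whose current RefSeq symbol is Ciart and which encodes another clock repressor, stood at 5.30, 7.84, 8.42 and 5.15 CPM, against 48.8, 16.0, 11.4 and 49.5 CPM (-2.24 ± 0.63, adjusted p = 0.0081), with unstressed replicates 1 and 4 the highest. The labels give no time of day for either group, so TAC and the hour at which hearts were taken cannot be told apart here. In PKCε knockout hearts Arntl stood at 8.50 ± 4.40 CPM after TAC, against 7.34 ± 4.73 CPM unstressed. Its level in hearts with PKCδ ablation was 8.01 ± 2.91 CPM after TAC, against 7.91 ± 0.776 CPM unstressed. Nr1d2 was lower after TAC in both, at 38.0 against 56.3 CPM and 39.0 against 57.9 CPM. For neither gene was the difference from the wild-type TAC effect called. Reads of Dbp are uncertain, with 18.0% of its exon length on the opposite strand of another gene.

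Promoters of 2 clock genes that fell are shown for the motifs through which the clock is known to act, the E-box CACGTG, bound by BMAL1 with CLOCK or NPAS2, and the core site AGGTCA of the ROR and REV-ERB receptors. The window and build are as above, both strands were searched, and capitals mark the matches.
Tef, chr15:81802423-81802722, plus strand: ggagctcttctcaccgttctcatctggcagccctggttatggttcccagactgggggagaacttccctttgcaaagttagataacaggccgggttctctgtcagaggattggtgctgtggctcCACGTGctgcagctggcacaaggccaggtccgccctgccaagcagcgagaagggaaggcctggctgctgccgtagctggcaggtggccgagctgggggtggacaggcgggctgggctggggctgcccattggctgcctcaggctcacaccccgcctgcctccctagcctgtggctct
Nr1d2, chr14:18239057-18239356, minus strand: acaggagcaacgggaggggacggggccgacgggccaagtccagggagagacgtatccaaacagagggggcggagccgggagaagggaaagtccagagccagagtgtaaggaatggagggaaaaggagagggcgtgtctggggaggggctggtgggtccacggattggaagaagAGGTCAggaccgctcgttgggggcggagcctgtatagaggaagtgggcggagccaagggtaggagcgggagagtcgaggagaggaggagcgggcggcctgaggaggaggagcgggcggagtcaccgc
The Tef window held 1 E-box and the Nr1d2 window 1 core site. These 2 were chosen after the matches were seen. Tef, Arntl and Per1 have 2 annotated starts each, and only the window of the most upstream one was searched. Among the other clock genes searched, the window of Per1 held 1 E-box and 1 core site and that of Cry1 1 E-box, and those of Arntl, Npas2, Dbp, Hlf, Per3, Nr1d1 and Cry2 held neither. Of 32851 promoters, 7.15% held the E-box and 16.3% the core site.

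**Figure D5:**
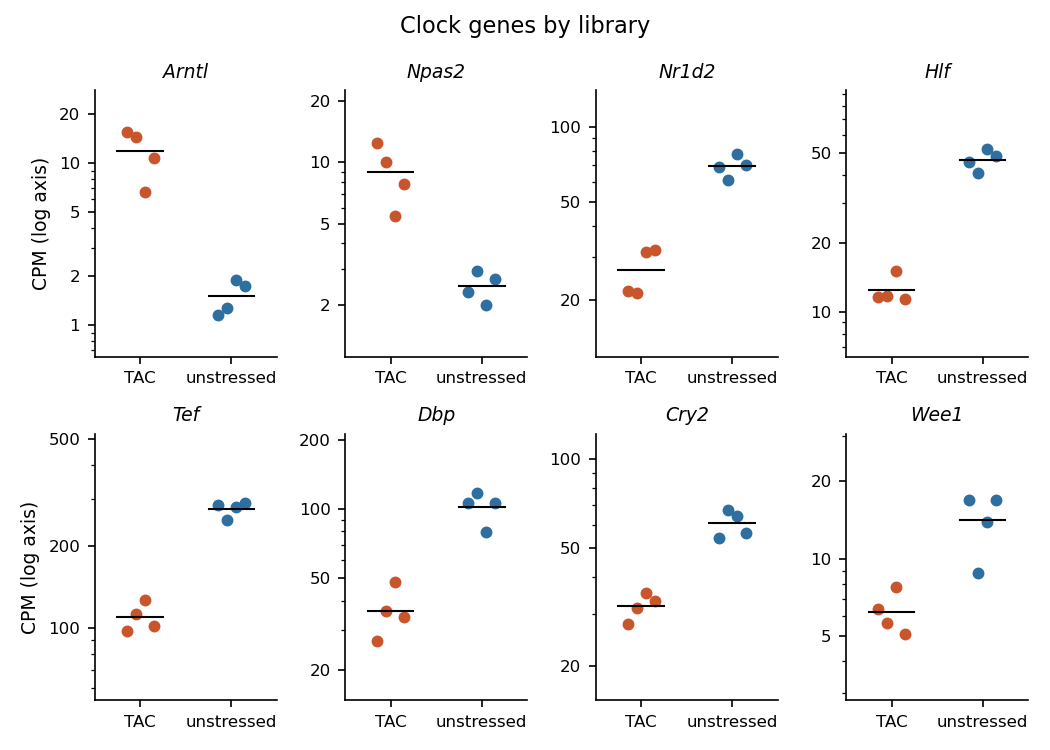
CPM (log axis) of 8 clock genes in each wild-type library, TAC (orange) left of unstressed (blue), with lines at the means. Arntl and Npas2 lie higher in all TAC libraries than in any unstressed one, and the other 6 genes lie lower.

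Of 76 genes of the cytosolic ribosome 45 rose and 3 fell, with a median of 0.28, and with the GC and length offset 36 rose and 7 fell (median 0.17). Rps14 stood at 303 ± 42.3 CPM in TAC hearts, against 190.3 ± 3.24 CPM in unstressed hearts (0.67 ± 0.08, edgeR adjusted p = 3.7e-07), while Rps25 fell by 0.59, with 24.8% of its exon length on the opposite strand of another gene. Ribosomal proteins have many processed copies in the genome, which leaves their counts uncertain. Of 76 genes of the mitochondrial ribosome 25 rose and 6 fell, and with the offset 23 rose and 11 fell. Of 22 cytosolic chaperones 9 rose and 1 fell, with Hspb7 and Hspb1, small heat shock proteins of muscle, at 0.73 ± 0.11 and 0.82 ± 0.14. Hspa1a and Hspa1b, inducible copies of HSP70 that share most of their sequence, had their highest level in TAC replicate 3. Hspa1a stood at 9.46, 2.93, 47.8 and 2.58 CPM after TAC, against 0.505, 0.827, 1.21 and 0.334 CPM (4.52 ± 1.67, edgeR adjusted p = 0.039), and was not called with the GC and length offset (4.28 ± 1.68, adjusted p = 0.055). Hspa1b stood at 10.6, 3.12, 52.0 and 2.30 CPM after TAC, against 0.360, 0.451, 0.201 and 0.401 CPM (5.52 ± 1.90, adjusted p = 0.028), and without TAC replicate 3 or any 1 unstressed replicate neither was called. Hspa1a was also not called with no filter on low counts or in a fit to the wild-type groups alone. Of 27 genes of the endoplasmic reticulum stress response 5 fell and 1 rose (17.9% and 17.8% of all genes). With the GC and length offset 3 fell and 1 rose. Herpud1, which takes part in the disposal of misfolded proteins, stood at 123 ± 11.04 CPM in TAC hearts, against 271 ± 41.1 CPM in unstressed hearts (-1.14 ± 0.22, edgeR adjusted p = 0.0004). Of 27 genes of cell death 8 rose and 3 fell, and with the GC and length offset 2 rose and 2 fell.

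Genes of blood vessel growth, redox defence and protein turnover were called in numbers near the background of all genes, 17.8% higher and 17.9% lower. Of 27 angiogenesis genes 4 rose and 6 fell. Vegfa, the main vessel growth factor, stood at 452 ± 55.1 CPM in TAC hearts, against 324 ± 56.4 CPM in unstressed hearts (0.48 ± 0.10, edgeR adjusted p = 0.00066), while Angpt1, a ligand of the endothelial receptor TIE2, and Pgf, placental growth factor, fell by 1.37 and 1.12. Of 27 antioxidant genes 6 rose and 6 fell, with the glutathione peroxidases Gpx1 and Gpx3 at 0.81 ± 0.12 and 0.85 ± 0.18 and the mitochondrial enzymes Sod2 and Prdx3 at -0.42 ± 0.07 and -0.42 ± 0.08. Of 28 genes of protein breakdown and autophagy 5 rose and 5 fell, and Pink1, which marks damaged mitochondria, fell by 0.42. Of 33 interferon-responsive genes 5 rose and none fell, and of 24 chemokines, cytokines and their receptors 6 rose and 2 fell. Ccl11, the chemokine eotaxin, stood at 0.537, 1.08, 0.712 and 0.836 CPM after TAC, against 7.93, 1.503, 1.21 and 7.56 CPM (-2.54 ± 0.50, adjusted p = 0.00035), and the high unstressed values were those of replicates 1 and 4.

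Few genes of DNA replication and mitosis were called, 2 higher and 2 lower of 43 (17.8% and 17.9% of all genes). With the GC and length offset 5 rose and 3 fell. The median log2 fold change of the list was 0.22. Its summed level was 611.5 to 657.8 CPM after TAC, against 450.0 to 551.7 CPM in unstressed hearts, without overlap. Cdkn1a, the cell cycle inhibitor p21, stood at 73.7, 62.5, 55.0 and 45.6 CPM after TAC, against 19.0, 15.8, 18.6 and 21.5 CPM (1.66 ± 0.33, edgeR adjusted p = 0.00056). Ccnd2, a D-type cyclin, rose by 0.50 ± 0.11. Cenpf, a kinetochore protein, stood at 5.57, 5.87, 9.39 and 8.22 CPM, against 21.3, 25.5, 16.7 and 20.3 CPM (-1.53 ± 0.16, adjusted p = 6.4e-08). Mki67, a marker of dividing cells, stood at 6.71, 5.93, 15.5 and 11.8 CPM, against 9.16, 10.4, 7.03 and 11.4 CPM, and was not called (0.06 ± 0.29, adjusted p = 0.9).

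Outside the lists, further genes were among the 10 that fell most with no overlap between groups. Ppl, the junctional protein periplakin, stood at 6.98, 8.93, 12.1 and 9.33 CPM after TAC, against 42.4, 25.9, 32.2 and 37.6 CPM (-1.89 ± 0.28, edgeR adjusted p = 2.0e-05). Lgals4, a galectin, stood at 4.63, 5.04, 3.63 and 4.67 CPM, against 15.1, 13.7, 20.2 and 16.1 CPM (-1.85 ± 0.23, adjusted p = 1.8e-06). Ces1d, a carboxylesterase, stood at 28.3, 25.5, 28.9 and 36.1 CPM, against 92.4, 85.2, 89.7 and 95.2 CPM (-1.61 ± 0.31, adjusted p = 0.00038). Gm1078, now Sbk3 in RefSeq, fell by 2.07. Gm20594, a humanin-like gene close in sequence to mitochondrial ribosomal RNA and hence uncertain, fell by 2.06.

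The response was set against that of mice with a germline knockout of PKCε, with 4 TAC and 3 unstressed libraries. All were labelled 12 weeks old and male, and the TAC libraries were made 4 weeks after TAC. By the test of the difference between the TAC effects, 5 of 13765 genes (0.0363%) were called, 4 higher (0.0291%) and 1 lower (0.00726%) in wild type, while 1083 genes had an unadjusted p below 0.05 and DESeq2 called 52. Myh7 stood at 2293 ± 1207 CPM after TAC and 188 ± 19.4 CPM unstressed in wild-type hearts (SD, n = 4 each), and at 4069.8 ± 1458 and 3364 ± 961 CPM in PKCε knockout hearts (n = 4 and 3). Unstressed knockout hearts thus lay above the mean of wild-type TAC hearts, and the wild-type TAC effect exceeded the other by 3.34 ± 0.52 on the log2 scale (edgeR adjusted p = 0.0091), although in a fit to these 4 groups alone the difference was not called. Tgm2, a transglutaminase that cross-links proteins, was not called in wild type (0.31 ± 0.14, adjusted p = 0.088) and had a difference of -1.33 ± 0.21 (adjusted p = 0.0076), at 369 ± 71.1 CPM in knockout TAC hearts, against 119 ± 5.25 CPM in knockout unstressed hearts. Heatr5b, a gene of vesicle transport, had a difference of 0.79 ± 0.15, whose call was lost in 7 of 15 fits with 1 library left out. These were wild-type TAC replicates 1 and 3, wild-type unstressed replicates 1 and 4, PKCε TAC replicates 1 and 3 and PKCε unstressed replicate 1. Lypd2, also called, was low in every group. With 1 library left out 3 to 26 genes were called, with 26 without unstressed wild-type replicate 2, 13 without unstressed wild-type replicate 3 and 20 without unstressed PKCε replicate 3.

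Against hearts with postnatal cardiac ablation of PKCδ (3 TAC libraries, 2 of them labelled female, and 3 unstressed libraries labelled male), the difference was called for 175 genes (1.27%), 112 higher and 63 lower in wild type. These PKCδ libraries were labelled 12 weeks old, and those of TAC were made 4 weeks after it. The number was 56 and 93 without PKCδ TAC replicates 1 and 2, 111 and 105 without PKCδ unstressed replicates 1 and 3, 104 without wild-type TAC replicate 1, and 101 without wild-type unstressed replicate 1 or 4. Scaled by library totals alone it was 245, 209 higher and 36 lower, and with Rn45s also left out 200, 153 higher and 47 lower. It was 307 with DESeq2, 515 in a fit to the 4 groups alone and 85 in libraries labelled male, and 1869 genes had an unadjusted p below 0.05. Of the 175, 105 were also called for the TAC effect in wild type. Prkcd itself stood at 18.9 ± 1.66 CPM in PKCδ TAC hearts and 17.6 ± 1.20 CPM in PKCδ unstressed hearts. In wild type it stood at 23.1 ± 3.51 CPM after TAC and 15.1 ± 1.20 CPM unstressed. Counts over the whole gene thus do not show the ablation by themselves, and the reason was not tested. Lonrf1, which encodes a RING finger protein, fell by 1.15 in wild type, with a difference of -1.72 ± 0.27 (edgeR adjusted p = 0.0012), and stood at 7.66 ± 0.903 CPM in PKCδ TAC hearts, against 5.13 ± 0.930 CPM in PKCδ unstressed hearts. Wee1, a kinase that delays mitosis and is driven by the clock, stood at 6.37, 5.61, 7.77 and 5.08 CPM in wild-type TAC libraries, against 16.9, 8.79, 13.9 and 16.9 CPM in unstressed ones (-1.19 ± 0.28), with a difference of -2.03 ± 0.45 (adjusted p = 0.021). Its means in PKCδ hearts were 6.82 ± 1.73 CPM after TAC and 3.79 ± 0.847 CPM unstressed, and the difference was not called without PKCδ TAC replicate 1 or 2 or unstressed replicate 1 or 2, in libraries labelled male, or with a score of Y-linked transcripts in the fit. The sex-linked transcripts also differed between the PKCδ arms, and their part in these differences was not tested beyond the fit with that score. That fit called 197 genes, of which only 128 were among the 175 and in the same direction.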

How the data were processed

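Polyadenylated RNA of 29 mouse heart libraries was sequenced, and the deposited files hold the authors' raw counts of reads for each gene symbol. The submitters' processing notes name mm10, TopHat2 2.0.10, Bowtie2, HTSeq, DESeq and edgeR, without their roles. Reads that were unassigned, ambiguous or aligned to more than 1 place are tallied apart in these deposited counts and stayed out of library sizes. The 23391 gene names shared with the deposited table of all libraries had 0 differing values. Assigned counts per library ranged from 10523709 to 17314739, and errors cover these libraries only.

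All 29 libraries entered 1 fit of 8 group means with edgeR 4.0.16 in R 4.3.3 (filterByExpr by group, TMM, robust quasi-likelihood, 21 residual degrees of freedom), and genes were called at a Benjamini-Hochberg adjusted p below 0.05 over all 13765 genes tested. CPM were computed with TMM factors, errors of CPM are SDs over libraries and errors of log2 fold changes are SEs. Genes are said to have risen or fallen only where called. The steps were tested on simulated counts with few genes changed and no shift by GC content, length or sex. That setting is simpler than these data and does not cover changes as wide as those here. Shares of isoforms used counts per length of the longest GENCODE transcript and an exact permutation test over libraries. GC content and length were known for 99.3% of the genes tested. Positions and promoters come from RefSeq GRCm38.p6, and exon overlaps from the GENCODE annotation.

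The libraries, gene lists and tests were chosen with earlier results of these data known, and lists are described by counts with no test of their own. Genes named were the 10 called genes per direction that changed most, of those whose log2 CPM averaged 2 or more and whose groups did not overlap, up to 6 members of a list with the smallest adjusted p, a panel of known stress, matrix, ion and metabolic genes, the 5 largest called differences per direction between genotypes, and marker genes by which a library stands apart. Some genes that this rule names are not reported here. Alternatives were DESeq2 1.42.0, other scalings and filters, Rn45s left out, a term for the sex label or for Y-linked transcripts, libraries labelled male, a replicate block, the groups compared alone, fits without robust weights and each library left out. The offset for GC content and length, and library totals with Rn45s left out, were chosen after seeing the data.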

Additional observations from a re-analysis of the deposited data

Results flagged for a closer look

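In each wild-type group of 4 libraries, the highest or lowest library of a named gene was set against the other 3 by Dixon's ratio of gap to range. Of 306 such groups checked 21 stood apart, and chance gives about 1 in 20. TAC replicate 3 was the highest for Hspa1b (52.0 CPM, against 2.30 to 10.6 in the others), Hspa1a (47.8 against 2.58 to 9.46), Timp1 (33.8 against 10.5 to 11.6), Col3a1 (1695 against 655 to 808), C1qb (114 against 83.4 to 88.2) and Hlf (15.0 against 11.4 to 11.7). TAC replicate 2 was the highest for Egr1 (482 CPM against 60.5 to 128), Fos (51.4 against 3.48 to 10.9) and Nppb (543 against 347 to 366). TAC replicate 4 was the highest for Atp2a2 (9114 CPM against 7527 to 7657) and Mef2a (69.0 against 59.7 to 60.8), and TAC replicate 1 the lowest for Ctf1 (1.81 against 2.68 to 2.79). Unstressed replicate 3 was the highest for Clcn3 (37.9 CPM against 34.9 to 35.4), Nr4a3 (2.71 against 1.35 to 1.47), Postn (21.1 against 18.4 to 18.8) and Cpt1b (12.8 against 11.3 to 11.5). It was the lowest for Col4a1 (804 against 878 to 888) and Prkcd (13.4 against 15.5 to 15.9). Unstressed replicate 2 was the lowest for Egr1 (35.3 CPM against 59.6 to 63.2) and Cs (1581 against 1618 to 1619), and unstressed replicate 1 the highest for Cox5a (148 against 119 to 123).

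The TAC effect in wild type differed from that in PKCε knockout hearts, by edgeR's test of the difference, for Myh7 (3.34 ± 0.52 on the log2 scale, adjusted p = 0.0091), Heatr5b (0.79 ± 0.15, adjusted p = 0.029) and Tgm2 (-1.33 ± 0.21, adjusted p = 0.0076). Against PKCδ ablation it differed for Fbn1 (1.25 ± 0.26, edgeR adjusted p = 0.013), Cenpf (1.15 ± 0.24, adjusted p = 0.012) and Grk5 (0.97 ± 0.23, adjusted p = 0.03), with the wild-type effect the more positive. It was the more negative for Wee1 (-2.03 ± 0.45, edgeR adjusted p = 0.021), Ppl (-1.74 ± 0.43, adjusted p = 0.045), Lonrf1 (-1.72 ± 0.27, adjusted p = 0.0012) and Slc2a4 (-0.40 ± 0.10, adjusted p = 0.049). With 1 of the 14 libraries of that comparison left out, the call was lost in 12 cases for Slc2a4, 11 for Ppl, 8 for Grk5, 4 for Wee1, 2 for Fbn1, 1 for Cenpf and 0 for Lonrf1, and PKCδ TAC replicate 1 was among the decisive libraries for all of these but Lonrf1. Reads aligned to more than 1 place, which enter no comparison of genes, made up 12.1%, 13.5%, 12.6% and 10.97% in TAC replicates 1 to 4, above the 8.13% to 8.48% of unstressed libraries. Their part in the results was not tested.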

How the results depend on the processing

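The number of genes called for the TAC effect in wild type was 4916, lay at 4427 to 5188 under the alternatives that kept all libraries of the comparison, and at 4053 to 4778 with 1 of the 8 libraries left out. Scaled by library totals alone, 3842 genes were higher and 1346 lower. Leaving out 1 library gave 11 to 21 macrophage markers called higher. The difference from PKCε knockout hearts (5 genes) gave 52 genes with DESeq2 (29 higher and 23 lower), 15 with a Y-linked score (8 and 7) and 10 with a replicate block (8 and 2). Its lower genes numbered 2 with the GC and length offset, with totals and Rn45s left out or without robust fitting, and 3 in the groups compared alone. Leaving out 1 library gave 3 to 26, with 2 to 13 higher and 1 to 13 lower. The difference from PKCδ ablation (175 genes) gave 307 with DESeq2 (169 and 138), 245 with totals alone (209 and 36), 85 in libraries labelled male (60 and 25) and 515 in the groups compared alone (278 and 237). Leaving out 1 library gave 56 to 256, with 38 to 156 higher and 18 to 100 lower. Log2 effects that were not called changed sign for Pdk4 (0.0347 with the offset, 0.0454 with totals alone, -0.32 to 0.17 with 1 library left out), Acta2 and Myh6 (0.0085 and 0.0325 with totals alone), Mki67 (-0.0216 in libraries labelled male, -0.24 to 0.25 with 1 library left out) and Fos (-0.30, without TAC replicate 2, to 1.39 with 1 library left out). The cause was not tested. Replicate numbers did not pair TAC and unstressed libraries of wild type (correlations of same-numbered deviations -0.01, -0.08, 0.01 and 0.04), and the replicate block called 4843 genes in wild type and 157 for PKCδ. With 4 libraries a group and no sham operation, time of harvest or pooling on record, small effects and genes of few counts are the least certain, and the counts cover no variation beyond these libraries.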
